A study of Homo sapiens with 6 samples.

Results

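The receptors for the neurotrophins and for the GDNF family ligands were examined in Kelly cells, an established human neuroblastoma line, after knockdown of METTL3. The 8 genes were chosen by name in the count tables: the TRK receptors NTRK2 and NTRK3, the p75 receptor NGFR, its coreceptor SORT1, the receptor tyrosine kinase RET, and its coreceptors GFRA1, GFRA2 and GFRA3. All 8 were found among the 19923 genes of the tables. The cells, labelled MYCN-amplified with genotype WT, received either a control siRNA or one that targets METTL3, at 20 μM per the labels, and were collected after 72 hours. Each of these groups, siControl and siMETTL3, has 3 libraries. RNA-seq was made from poly(A) RNA and held 15430000 to 21565013 counts per library. All 6 libraries come from 1 line, and per the file headers the 3 knockdown libraries share 1 siRNA name. Nothing in the labels says whether replicates were separate cultures, so the p-values measure the spread between these libraries, which may be technical.

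Neurotrophins are secreted growth factors that bind TRK receptor tyrosine kinases with high affinity and the p75 receptor with lower affinity, and p75 together with sortilin binds the uncleaved proneurotrophins. GDNF family ligands bind a GFRA protein held in the membrane by a lipid anchor, and the pair then activates the kinase RET. Both systems guide survival and differentiation of sympathetic neurons, the lineage from which neuroblastoma arises. METTL3 is the catalytic subunit of the enzyme that writes N6-methyladenosine (m6A) in mRNA, often on the adenosine of GGACU.

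The sequences below show such a motif in the coding sequence of 5 of the 7 receptors whose mRNA level changed. Each is 60 bases of the canonical GENCODE release 44 transcript, read 5′ to 3′ on the gene's strand in DNA letters, with the GGACT match in capitals. The windows lie on GRCh38 at chr9:84727843-84727902 (NTRK2, plus strand, exon 9 of 19), chr15:88256054-88256113 (NTRK3, minus, exon 3 of 20), chr1:109397592-109397651 (SORT1, minus, exon 1 of 20), chr10:116125221-116125280 (GFRA1, minus, exon 6 of 11) and chr5:138253295-138253354 (GFRA3, minus, exon 7 of 8).
NTRK2: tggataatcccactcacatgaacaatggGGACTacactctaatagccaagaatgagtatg
NTRK3: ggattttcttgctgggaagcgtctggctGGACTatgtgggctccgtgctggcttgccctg
SORT1: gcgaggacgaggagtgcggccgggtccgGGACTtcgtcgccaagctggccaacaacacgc
GFRA1: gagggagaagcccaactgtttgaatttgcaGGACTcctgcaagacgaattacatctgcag
GFRA3: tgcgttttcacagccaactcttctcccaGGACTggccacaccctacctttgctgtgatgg
Among the remaining changed receptors, GFRA2 held 4 coding matches, which are not shown, and the coding sequence of NGFR held 0, with 5 in its whole transcript. RET, which did not pass the threshold, also held 4 coding matches, so a coding match did not set the changed receptors apart. The share of all tested genes with a coding match was not determined. Per kb of transcript, on the sense strand only, the motif was found 2.52 times in GFRA3, 2.20 times in GFRA2, 1.47 times in NGFR, 1.43 times in SORT1, 1.27 times in NTRK2, 1.25 times in RET, 1.10 times in NTRK3 and 0.437 times in GFRA1. The median of the 14603 tested genes with a canonical transcript was 0.928 per kb, and 91.2% of them held at least 1 match. GFRA1 alone among the 8 lay below that median. A match is only a run of letters, and m6A itself was not measured in these libraries.

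METTL3, the targeted gene, had 1154, 1055 and 847 counts in siControl and 679, 692 and 705 in siMETTL3, with no overlap, and its span overlaps TOX4. On the scale of counts relative to the normalised library size (CPM), 61.0% of its control level remained (edgeR quasi-likelihood test, Benjamini-Hochberg adjusted p, here called FDR, 4.68e-06). Of the 15311 genes that passed the filter on low counts, 37.8% were called at an FDR under 0.05, so a called receptor is not by itself unusual in this comparison. The noradrenergic markers of neuroblastoma cells were present, with all 9 listed genes at 1 CPM or more in every library. Their summed level was 6095 to 6543 CPM in siControl and 8772 to 9334 CPM in siMETTL3, and MYCN alone went from 3021 to 4638 CPM. Markers of Schwann cells, which carry p75, summed to 5.91 to 6.81 CPM and 7.21 to 8.94 CPM. Of those 7 markers, SOX10 and ERBB3 reached 1 CPM in every library, none was called, and FABP7 was at 0. The 8 mesenchymal markers summed to 183 to 193 CPM in siControl and 159 to 175 CPM in siMETTL3. They did not move together: 3 rose (VIM, PRRX1 and FOSL2) and 2 fell (FN1 and CD44). Their called share was 62.5%, against 37.8% of all tested genes. Of 8 blood, endothelial and epithelial markers only EPCAM reached 1 CPM in every library, and KRT5 was at 0. The part of these marker levels in the results on the receptors was not tested. In such bulk RNA, fewer cells of a type and less RNA per cell cannot be told apart.

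Of the 8 receptor genes, 6 rose after METTL3 knockdown, where 18.6% of all tested genes did, and 1 fell, where 19.2% of all tested genes did. The 8 genes were chosen with earlier results of these data known. Comparisons of them with all tested genes are therefore descriptions and not independent support. The risers were NTRK2, NTRK3, NGFR, GFRA1, GFRA2 and GFRA3. SORT1 fell, and RET did not pass the threshold. NTRK3, NGFR and GFRA3 rose at least 2-fold, where 2.74% of all tested genes did, but NTRK3 stood at the 2-fold limit and fell below it under several alternatives. GFRA3 passed the filter on low counts only through the siMETTL3 libraries, and 5 receptor genes rose where every library had to hold 10 counts. In all 8 genes the 3 libraries of one group lay entirely on one side of the other 3, which was so for 49.9% of all tested genes. The median log2 fold change was 0.59 over the 8 receptors and -0.0021 over all tested genes. The 4 largest rises were in the 4 receptor genes with the lowest levels, as the plot of receptor genes among all tested genes shows. Genes at such levels leaned upward as a whole: of 2555 tested genes with an average log2 CPM under 2, 13.1% rose and 3.25% fell, with a median log2 fold change of 0.15. So did long genes: of 3397 tested genes with a span of at least 100 kb, 28.3% rose and 15.7% fell. The risers NTRK2, NTRK3, GFRA1 and GFRA2 have such spans. With an offset for gene length their log2 fold changes were 0.80, 0.96, 0.26 and 0.19. All 4 stayed called, GFRA2 narrowly (edgeR FDR 0.0488).

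**Figure D1:**
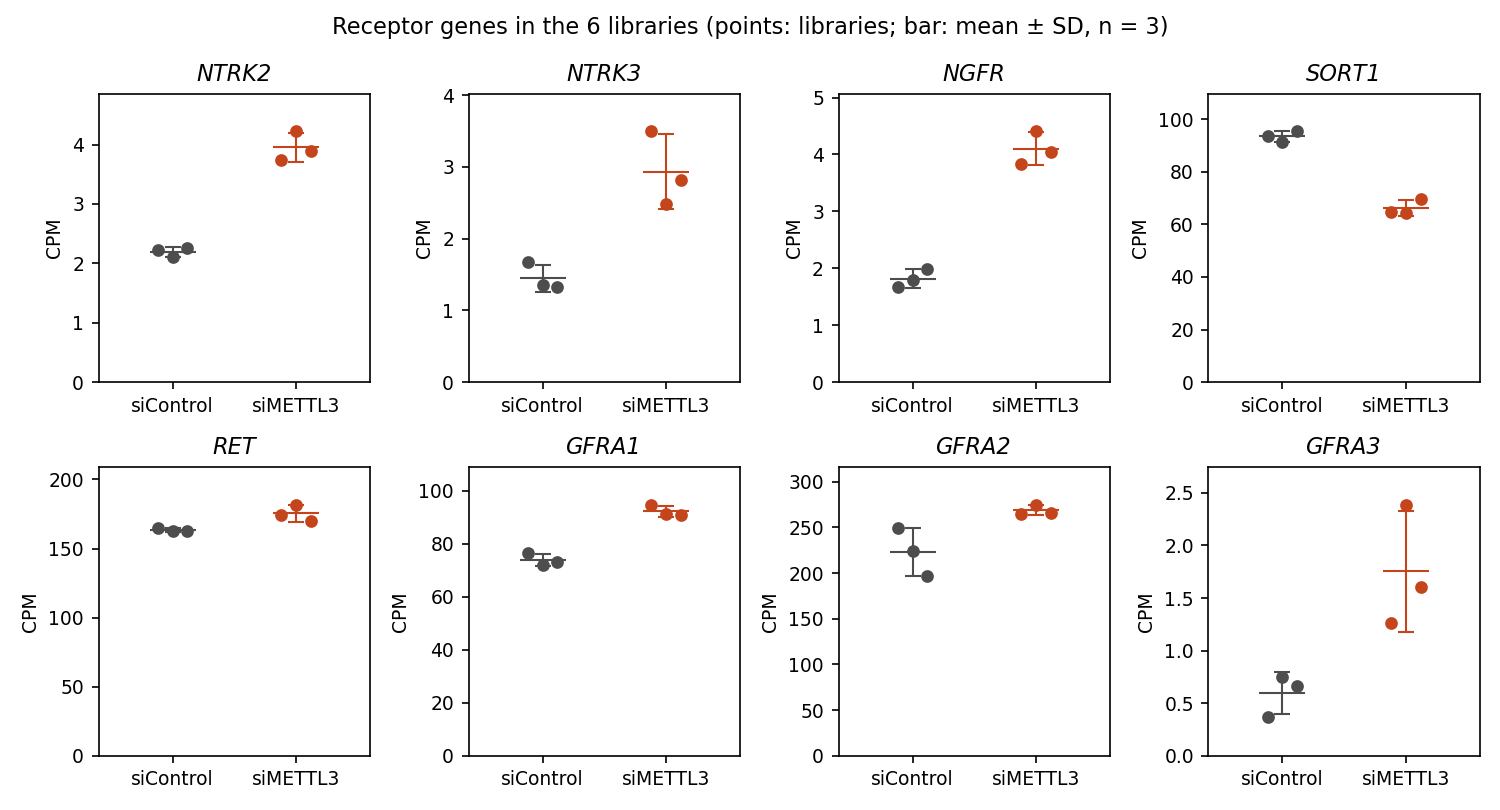
CPM of each receptor gene (vertical axes, each from 0) in the 3 siControl libraries (grey) and the 3 siMETTL3 libraries (red); points are libraries, and bars give the mean ± SD. The groups do not overlap in any of the 8 panels, and SORT1 is the only gene that is lower in siMETTL3.

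NGFR encodes p75, a death-domain receptor that binds all neurotrophins (chr17:49495293-49515008, plus strand). It had 36, 36 and 30 counts in siControl and 79, 96 and 83 in siMETTL3. Its level rose from 1.82 ± 0.162 CPM to 4.10 ± 0.289 CPM (SD, n = 3), a log2 fold change of 1.18 with a 95% interval of 0.73 to 1.63 (edgeR FDR 0.000614). Every knockdown library held at least 79 counts against at most 36 in a control library. The gene span also covers the noncoding gene NGFR-AS1 on the other strand, and counting without strand cannot separate them.

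SORT1 encodes sortilin, a sorting receptor that carries cargo between the Golgi and endosomes and forms a complex with p75 for proneurotrophins (chr1:109309568-109397918, minus strand). It had 2020, 1826 and 1438 counts in siControl and 1334, 1402 and 1434 in siMETTL3. Since the third control library was the shallowest, the normalised values are further apart than the counts: 93.7, 91.4 and 95.4 CPM against 64.8, 64.4 and 69.8 CPM. The level fell by 0.49 on the log2 scale (interval -0.62 to -0.37, edgeR FDR 3.09e-05), so that 71.0% of the control level remained.

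The ratio of these 2 partners was also taken within each library, a comparison that needs no scaling. There were 56.1, 50.7 and 47.9 SORT1 counts per NGFR count in siControl and 16.9, 14.6 and 17.3 in siMETTL3. The groups did not overlap (exact permutation test over libraries, two-sided, p = 0.1, adjusted p = 0.15 over 6 ratios). With 3 libraries against 3 this test cannot go below 0.1. Since SORT1 was lower and NGFR higher in all 3 siMETTL3 libraries, the ratios could not overlap. Their lack of overlap therefore adds nothing to the results on each gene.

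NTRK2 encodes TrkB, the receptor of BDNF and NTF4 (chr9:84668551-85027070, plus strand). Its counts were 48, 42 and 34 in siControl and 77, 92 and 80 in siMETTL3. The level rose from 2.19 ± 0.0817 CPM to 3.95 ± 0.247 CPM (SD, n = 3), a log2 fold change of 0.85 (interval 0.42 to 1.28, edgeR FDR 0.00417). NTRK3 encodes TrkC, the receptor of NTF3 (chr15:87859751-88256768, minus strand). Its counts were 36, 27 and 20 in siControl and 72, 54 and 58 in siMETTL3. The level rose from 1.45 ± 0.191 CPM to 2.93 ± 0.518 CPM (SD, n = 3), a log2 fold change of 1.00 (interval 0.45 to 1.55, edgeR FDR 0.00703). Both rises were larger than the spread within either group. There were 1.33, 1.56 and 1.70 NTRK2 counts per NTRK3 count in siControl and 1.07, 1.70 and 1.38 in siMETTL3, so the groups overlapped in this ratio (exact permutation p = 0.7, two-sided, adjusted p = 0.7).

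These TRK counts were few for very long genes. The authors counted reads over the whole gene, introns included, and the spans of NTRK2 and NTRK3 are 359 and 397 kb, of which exons of any annotated transcript cover 9.25% and 6.74%. Per kb of span, NTRK2 held 0.00586 to 0.00629 CPM in siControl and 0.0104 to 0.0118 CPM in siMETTL3, and NTRK3 held 0.00334 to 0.00420 and 0.00625 to 0.00881 CPM. For the level that counting over a span gives in genes not expected in this lineage, 317 olfactory receptor genes without an overlapping neighbour were taken. Pooled into 1 value per library, they held 0.00573 to 0.0102 CPM per kb in siControl and 0.00549 to 0.00785 CPM per kb in siMETTL3. This range is the spread of the pooled value between libraries, not between genes, so it cannot place a single gene at or above background. The control level of NTRK2 thus lay inside that range and that of NTRK3 below it. The siMETTL3 level of NTRK2 lay above it in all 3 libraries, and that of NTRK3 did so in 1 of 3. The olfactory receptor level itself overlapped between the groups. How many of the TRK counts come from introns was not measured. The span of NTRK3 also covers NTRK3-AS1 on the other strand and the processed pseudogene MED28P6 on the same strand.

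The promoter entries of RefSeq (GRCh38.p14, 250 bases before to 50 after the start site) are given for the risers NTRK3 and GFRA3 and for SORT1, which fell, as examples chosen after their values were seen. Capitals mark the GC box GGGCGG on either strand. The windows are chr15:88256690-88256989, chr5:138274572-138274871 and chr1:109397869-109398168, all on the minus strand.
NTRK3: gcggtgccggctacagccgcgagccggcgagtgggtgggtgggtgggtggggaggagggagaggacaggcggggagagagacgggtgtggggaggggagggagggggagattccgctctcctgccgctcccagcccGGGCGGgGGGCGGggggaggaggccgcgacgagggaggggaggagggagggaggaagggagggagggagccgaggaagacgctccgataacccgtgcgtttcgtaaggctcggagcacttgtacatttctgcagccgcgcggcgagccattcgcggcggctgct
GFRA3: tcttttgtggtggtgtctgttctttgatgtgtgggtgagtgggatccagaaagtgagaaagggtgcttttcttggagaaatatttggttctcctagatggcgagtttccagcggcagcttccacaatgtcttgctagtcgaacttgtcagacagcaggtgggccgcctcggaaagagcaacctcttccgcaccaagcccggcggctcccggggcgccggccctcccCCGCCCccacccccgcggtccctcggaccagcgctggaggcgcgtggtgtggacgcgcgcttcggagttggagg
SORT1: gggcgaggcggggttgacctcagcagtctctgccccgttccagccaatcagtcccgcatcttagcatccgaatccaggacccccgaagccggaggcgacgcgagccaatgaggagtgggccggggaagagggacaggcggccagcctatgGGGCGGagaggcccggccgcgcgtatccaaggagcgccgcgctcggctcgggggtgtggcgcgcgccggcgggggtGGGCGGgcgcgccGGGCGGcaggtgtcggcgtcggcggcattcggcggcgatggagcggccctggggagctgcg
The GC box was found 2 times in NTRK3, 1 time in GFRA3 and 3 times in SORT1, and 67.4% of the promoters of 11812 tested genes hold it. The E-box CACGTG, a site of MYC-family proteins, and the homeodomain core TAATTA were found in none of the 3, against 9.6% and 2.1% of those promoters. The G and C content was 72.0% in NTRK3, 61.3% in GFRA3 and 74.7% in SORT1, and the median of the 11812 was 65.0%. The entries not printed held 0 GC boxes in the riser GFRA1 (G and C content 64.3%), 1 in the riser NTRK2 (50%) and 5 in RET (78.7%), and neither of the other motifs. The start sites used for GFRA1 and NTRK2 lay 992 and 755 bases from the 5′ end of the gene span. Promoters of the risers NGFR and GFRA2 are not described here.

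RET encodes the kinase through which all GDNF family ligands that use a GFRA coreceptor signal (chr10:43077064-43130351, plus strand). Its counts were 3559, 3245 and 2455 in siControl and 3584, 3957 and 3495 in siMETTL3. The level was 163 ± 1.37 CPM in siControl and 175 ± 5.88 CPM in siMETTL3 (SD, n = 3). The log2 fold change of 0.10 did not pass the threshold (edgeR FDR 0.156). Its interval of -0.014 to 0.22 allows a rise of up to 1.16-fold. The 3 knockdown libraries, at 170 to 182 CPM, nevertheless all lay above the 3 control libraries, at 162 to 165 CPM.

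GFRA1 encodes the preferred coreceptor of GDNF (chr10:116056925-116273467, minus strand). Its counts were 1651, 1439 and 1104 in siControl and 1951, 1986 and 1869 in siMETTL3. The level rose from 73.9 ± 2.34 CPM to 92.3 ± 2.13 CPM (SD, n = 3), a log2 fold change of 0.32 (interval 0.20 to 0.44, edgeR FDR 0.000733). Within each library, GFRA1 held 0.464, 0.443 and 0.450 counts per RET count in siControl and 0.544, 0.502 and 0.535 in siMETTL3. These ratios did not overlap (exact permutation p = 0.1, two-sided, adjusted p = 0.15).

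GFRA2 encodes the preferred coreceptor of neurturin and held the most counts of the 8 receptors in every library (chr8:21690398-21812357, minus strand). It had 5388, 4470 and 2970 counts in siControl and 5448, 5986 and 5467 in siMETTL3. The control libraries were spread widely, at 249.8, 224 and 197 CPM, while the knockdown libraries lay close together, at 265, 275 and 266 CPM. The log2 fold change was 0.26 (interval 0.10 to 0.42, edgeR FDR 0.0128). The call was lost without siControl replicate 2 (edgeR FDR 0.0528) and without siMETTL3 replicate 2 (edgeR FDR 0.0649), and the FDR went from 0.000154 to 0.0649 over all alternatives. Per RET count, GFRA2 held 1.51, 1.38 and 1.21 counts in siControl and 1.52, 1.51 and 1.56 in siMETTL3, where the lowest knockdown value was just under the highest control value (exact permutation p = 0.2, two-sided, adjusted p = 0.24).

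GFRA3 encodes the preferred coreceptor of artemin and was the least abundant of the 8 by counts (chr5:138252380-138274621, minus strand). Its counts were 8, 15 and 10 in siControl and 26, 52 and 33 in siMETTL3. The gene span also covers the processed pseudogene RPS27AP18 on the same strand, and counting over the span cannot separate them. The level rose from 0.595 ± 0.199 CPM to 1.75 ± 0.577 CPM (SD, n = 3), a log2 fold change of 1.57 with a wide interval of 0.74 to 2.41 (edgeR FDR 0.00588). Among all tested genes, 135 had a larger log2 fold change. Per RET count it held 0.00225 to 0.00462 counts in siControl and 0.00725 to 0.0131 in siMETTL3 (exact permutation p = 0.1, two-sided, adjusted p = 0.15).

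**Figure D2:**
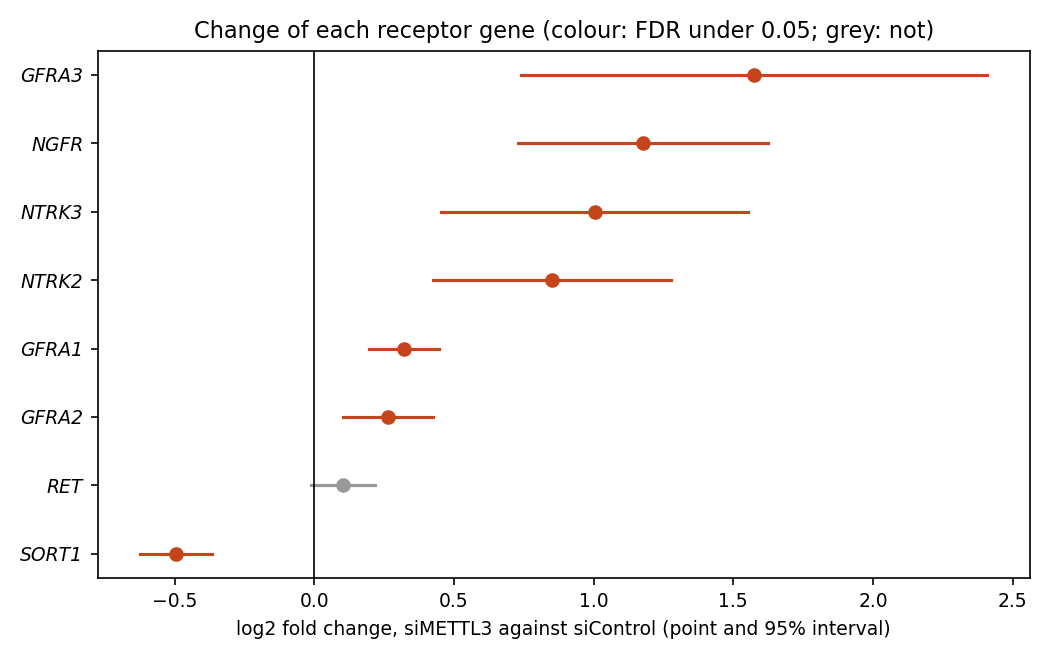
Log2 fold change of each receptor gene, siMETTL3 against siControl, with its 95% interval from edgeR. The interval of RET alone includes 0, and the intervals of the low-count genes GFRA3, NGFR, NTRK3 and NTRK2 are the widest.

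**Figure D3:**
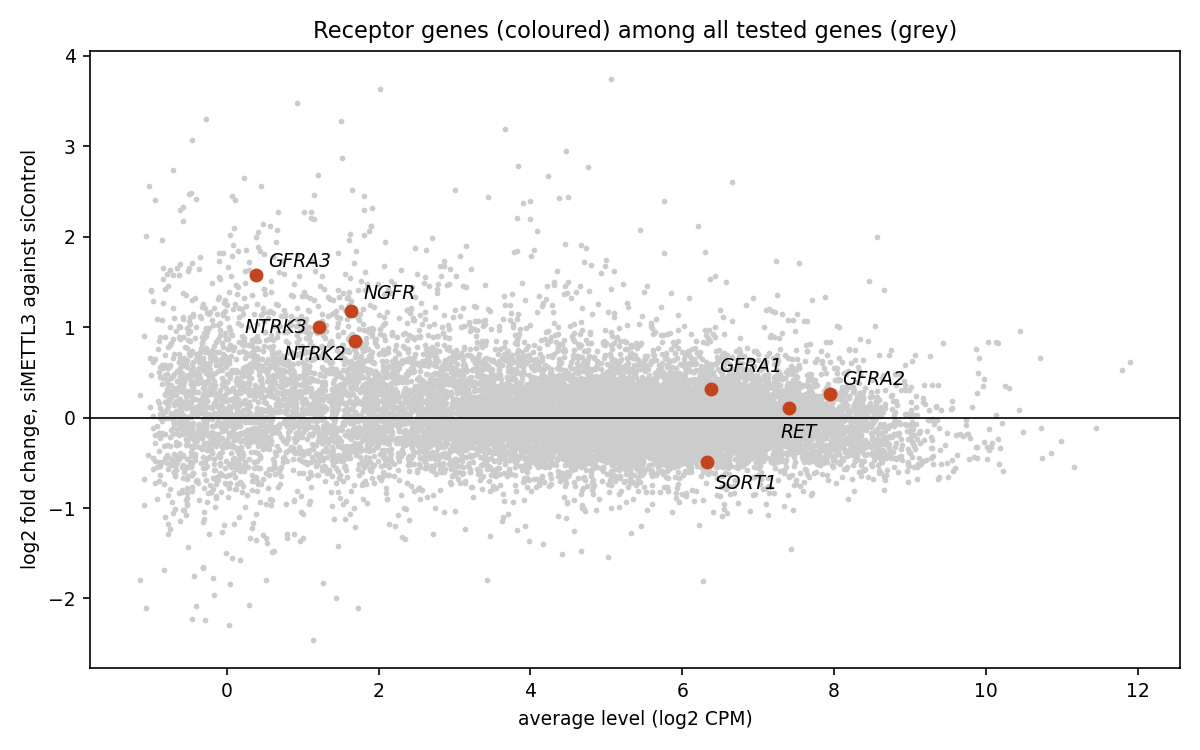
Log2 fold change against average log2 CPM for all 15311 tested genes (grey points) and the 8 receptor genes (red, labelled). GFRA3, NGFR, NTRK3 and NTRK2 lie together at low levels with log2 fold changes of 0.85 to 1.57, and the other 4 lie at high levels between -0.49 and 0.32.

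To compare levels between genes, CPM were divided by the length of all annotated exons. In siControl the order was GFRA2 (38.7 ± 4.56 CPM per exonic kb), RET (18.2 ± 0.153), SORT1 (10.2 ± 0.222), GFRA1 (6.94 ± 0.219), NGFR (0.440 ± 0.0391), GFRA3 (0.299 ± 0.10), NTRK2 (0.0662 ± 0.00246) and NTRK3 (0.0541 ± 0.00712), each as mean ± SD with n = 3. No neighbours in this order overlapped between libraries. In siMETTL3, GFRA1 at 8.67 ± 0.200 CPM per exonic kb stood above SORT1 at 7.27 ± 0.331 (SD, n = 3), again without overlap. There NGFR (0.927 to 1.06) and GFRA3 (0.636 to 1.2) overlapped, as did NTRK2 (0.113 to 0.127) and NTRK3 (0.0926 to 0.131). Per kb of the whole span, RET rather than GFRA2 was the highest in both groups, at 3.07 against 1.83 CPM per kb in siControl. Exons make up 16.8% of the span of RET and 4.74% of that of GFRA2. On either scale RET, GFRA1 and GFRA2 stood above NGFR, GFRA3, NTRK2 and NTRK3. The gap was narrowest per kb of span in siMETTL3, with GFRA1 at 0.426 and NGFR at 0.208 CPM per kb.

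The genes with the most similar profiles over the 6 libraries were sought for the receptors with the largest rise and fall. This is a description that reflects the 2 groups as well as differences between libraries within them. For GFRA3 they were HMCES (Pearson r of log2 CPM 0.996), CKMT1A (0.995), which has a near-identical copy, and LYPD6 (0.992). Their log2 fold changes were only 0.125, 0.31 and 0.24, against 1.57 for GFRA3, as a correlation does not measure the size of a change. For SORT1 they were ATP7A (0.9995), NEK7 (0.9992) and RND3 (0.9984). As many as 946 genes had an r over 0.95 with SORT1 and 87 had one with GFRA3.

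The other genes of these pathways were listed from general knowledge, but with earlier results of these data known. Of 108 tested, 29 rose and 21 fell, a called share of 46.3% against 37.8% of all tested genes. The lists' medians lay between -0.082 for p75 partners and 0.31 for the 6 tested processing proteases. Among the other receptors and coreceptors, 8 of 13 tested genes rose and 1 fell, where 18.6% and 19.2% of all tested genes did. Their called share was 69.2% against 37.8% of all tested genes, and their median log2 fold change was 0.27.

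Of the other sortilin relatives, 1 rose, 1 fell and SORCS1 and SORCS3 did not pass the threshold. SORCS1, by far the most abundant of them by CPM, was at 365 CPM in siControl and 371 CPM in siMETTL3 (edgeR FDR 0.809), and the FDR of SORCS3 was 0.600. SORCS2, a sortilin relative that pairs with p75 and TrkB and whose span covers PSAPL1, rose from 14.6 ± 1.37 CPM to 48.8 ± 3.39 CPM (SD, n = 3), a log2 fold change of 1.74 (edgeR FDR 2.06e-08). Its counts were 348, 274 and 208 in siControl and 1044, 1104 and 921 in siMETTL3. SORL1 fell by 0.25 on the log2 scale (edgeR FDR 0.0238). It was the only one of the 13 that fell and was named after its values were seen; in the fits without 1 library, 0 or 1 of the other receptors fell. LINGO1, a partner of p75 in the Nogo receptor complex, and TNFRSF19, which can take the place of p75 there, rose with log2 fold changes of 0.88 and 0.82 (edgeR FDR 3.36e-05 and 9.83e-06). GFRA4 had 0 counts in siControl and 2, 0 and 2 in siMETTL3 and was not tested.

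Few ligands were expressed. BDNF, the TrkB ligand, fell from 35.04 ± 1.49 CPM to 23.9 ± 3.56 CPM (SD, n = 3), a log2 fold change of -0.55 (edgeR FDR 0.000795). GDNF had 58, 48 and 36 counts in siControl and 50, 113 and 100 in siMETTL3, and the groups overlapped in CPM. Its log2 fold change of 0.74 passed the threshold narrowly (edgeR FDR 0.0435, against 0.00504 to 0.210 over all alternatives). The call was lost in limma-voom (FDR 0.0979) and when siControl replicate 2 was left out (edgeR FDR 0.129). It was also lost when replicate 2 or 3 of siMETTL3 was left out (edgeR FDR 0.210 and 0.166). NTF3 was at 1.35 ± 0.490 and 1.2 ± 0.235 CPM, ARTN at 0.812 ± 0.351 and 1.14 ± 0.311 CPM, and PSPN, whose span overlaps ALKBH7, at 1.97 ± 0.0424 and 2.88 ± 0.853 CPM (SD, n = 3), and none of these 3 passed the threshold, nor did GDF15 (log2 fold change -0.82, edgeR FDR 0.137). NRTN had 0 to 12 counts and NTF4 0 to 4 in a library, and neither was tested.

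**Figure D4:**
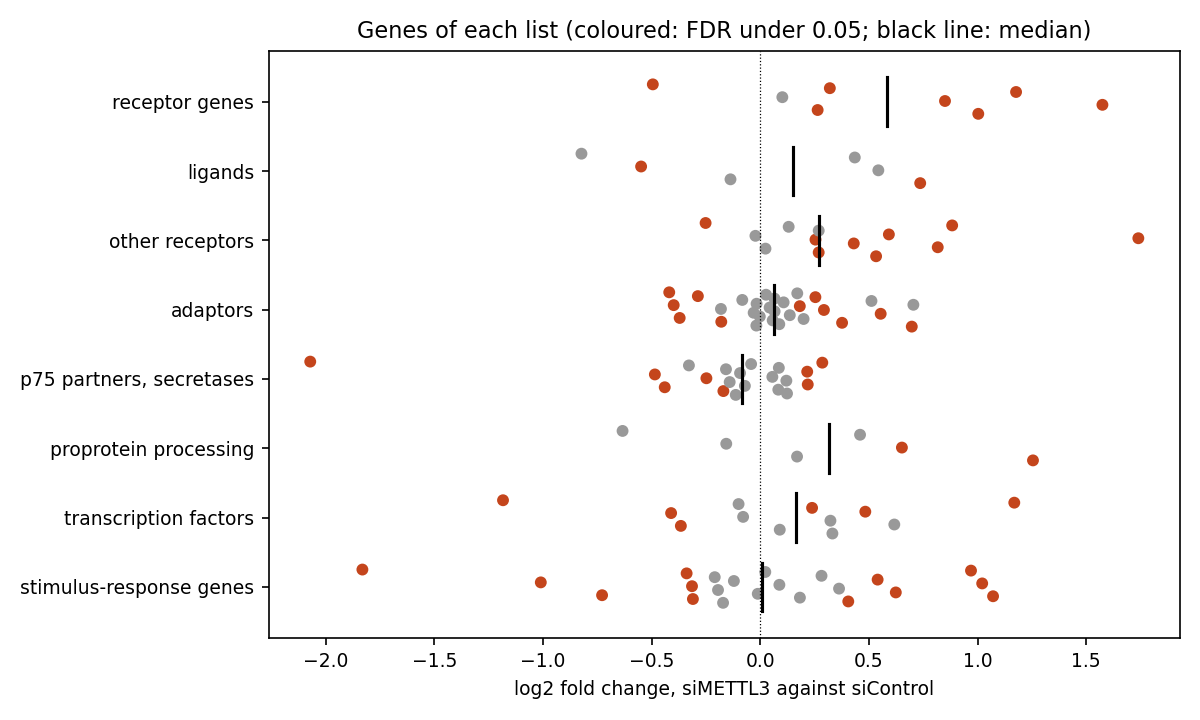
Log2 fold change, siMETTL3 against siControl, of the tested genes of each list (points; red, FDR under 0.05; grey, not), with the median of each list as a black line. The receptor genes have the highest median, at 0.59, and the other lists hold called genes on both sides of 0, except processing proteases, where the 2 called genes rose.

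Of 29 tested adaptors of TRK and RET kinases, 6 rose and 5 fell (median log2 fold change 0.065), a called share of 37.9% that is close to the 37.8% of all tested genes. PIK3R1, a regulatory subunit of PI3 kinase, rose by a log2 fold change of 0.70 (edgeR FDR 9.47e-06), as did CBL, a ubiquitin ligase that acts on activated receptors, with 0.38 (edgeR FDR 0.00122). The docking proteins GAB2 and SHC1 fell, with log2 fold changes of -0.42 and -0.29 (edgeR FDR 8.09e-05 and 0.00107). The spans of CBL and SHC1 overlap other genes. Of 20 genes for p75 partners and for the secretases that cleave it, 3 rose and 5 fell, a called share of 40%, again close to the 37.8% of all tested genes. Nicastrin (NCSTN), a subunit of gamma-secretase, fell by 0.49 on the log2 scale (edgeR FDR 9.90e-05), and TRAF4, which binds p75, had a log2 fold change of -0.44 (edgeR FDR 0.000223). MAGEH1, another p75 binder, went from 32, 42 and 32 counts to 6, 12 and 10 (log2 fold change -2.07, edgeR FDR 0.00062). APH1A, also of gamma-secretase, fell by 0.25 on the log2 scale (edgeR FDR 0.00321, and 0.194 with an offset for gene length, the highest of all alternatives, which began at 0.000842).

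Of 6 tested proteases listed for proneurotrophin processing, 2 rose and 0 fell, a called share of 33.3% against 37.8% of all tested genes. PCSK5, a proprotein convertase, rose from 17.4 ± 0.910 CPM to 41.6 ± 0.960 CPM (SD, n = 3), a log2 fold change of 1.25 (edgeR FDR 1.07e-07). PLAT, the plasminogen activator, rose by a log2 fold change of 0.65 (edgeR FDR 0.000722). Among 12 tested transcription factors described upstream of these receptors, 3 rose and 3 fell, a called share of 50% against 37.8% of all tested genes. RUNX3, known for its role in TrkC-positive sensory neurons, rose from 10.2 ± 1.30 CPM to 23.2 ± 0.875 CPM (SD, n = 3), a log2 fold change of 1.17 (edgeR FDR 3.20e-06). HAND2, a noradrenergic factor, rose by a log2 fold change of 0.48, while ISL1 and TLX2 fell by 1.18 and 0.37 on the log2 scale (edgeR FDR 1.91e-05, 6.06e-08 and 0.00166).

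Of 22 tested transcripts that follow TRK or RET stimulation, 6 rose and 6 fell, with a median log2 fold change of 0.0058 and a called share of 54.5% against 37.8% of all tested genes. GAP43, a growth cone protein, rose by a log2 fold change of 1.07 (edgeR FDR 1.28e-08). SPRY4 and SPRED2, both inhibitors of the RAS-MAPK pathway, rose with 0.97 and 0.40 (edgeR FDR 2.97e-06 and 0.000149). DUSP6, a phosphatase induced by ERK, fell from 34.8 ± 4.41 CPM to 17.3 ± 0.463 CPM (SD, n = 3), a log2 fold change of -1.01 (edgeR FDR 5.79e-06).

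**Figure D5:**
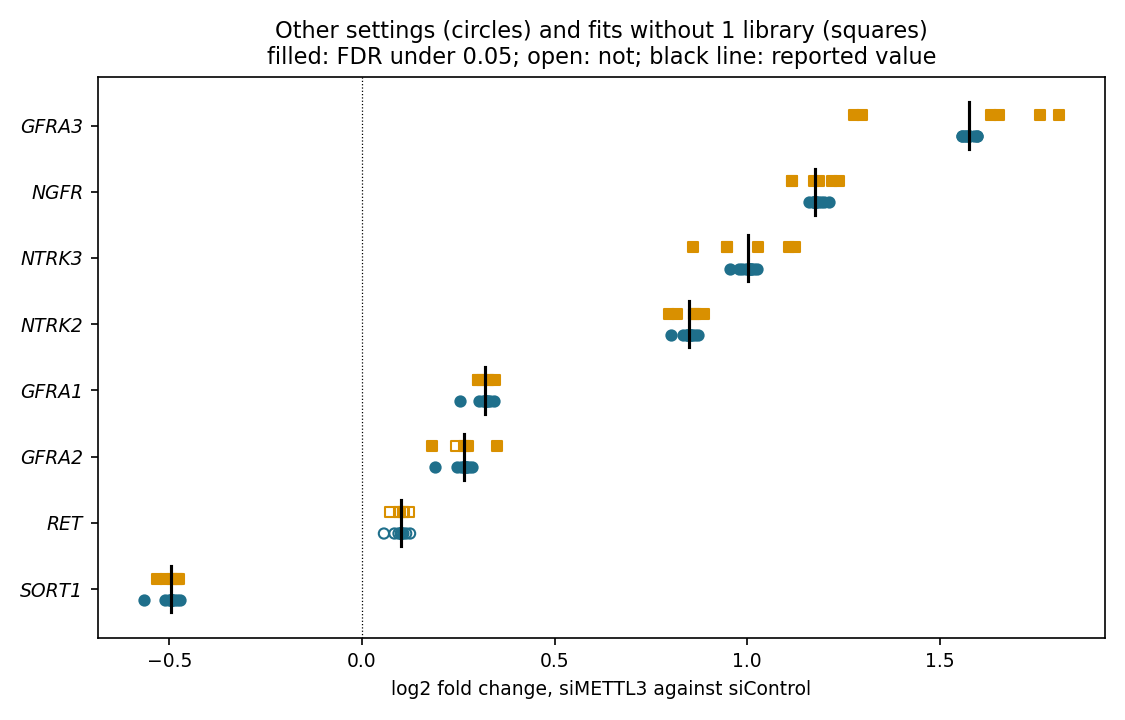
Log2 fold change of each receptor gene under the 11 other settings (circles) and in the 6 fits that left out 1 library (squares); filled symbols have an FDR under 0.05, and the black line is the reported value. No receptor gene changes direction, and GFRA2 is the only called gene with open symbols, of which 1 lies under filled squares at 0.26.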

How the data were processed

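Per the file headers, the deposited values are raw read counts per gene that the authors made with featureCounts v1.5.3 on a GENCODE release 33 annotation of protein-coding genes. Whole gene spans were counted, introns included, with reads shared between overlapping genes and with no option for strand or for read pairs. Among genes with 2 to 9 counts, 79.6% to 84.8% of counts were even, so a low count may stand for fewer independent fragments. The submitters' processing notes name FastQC 0.11.5, Trimmomatic 0.36, HISAT2 2.1.0, Subread 1.5.3 and GRCh38. Coordinates are those of the tables. Symbols of 19033 of 19923 genes were found in GENCODE release 44, and 19029 lay at the same place. Libraries of the same group all differed by more than counting noise (chi-square per degree of freedom 3.11 to 16.9, where noise alone gives about 1 for independent reads and about 2 if both mates of every pair were counted).

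Sample titles gave the groups and the replicate numbers. Counts were filtered with filterByExpr (minimum count 10), scaled by TMM and tested with edgeR 4.0.16 (R 4.3.3; glmQLFit with robust estimates, glmQLFTest, no covariate), and p-values were adjusted over all 15311 tested genes with a threshold of 0.05. The fit was tested on simulated data. The members and the gene lists were chosen with earlier results of these data known. Named besides the members were up to 4 called genes per list with the smallest FDR, GFRA4 and the ligands; profiles were compared on log2(CPM + 0.5). NRADD, also listed, is not analysed here, and some listed genes are not reported here. The alternatives were 3 scalings, 2 filters, DESeq2 1.42.0, limma-voom (limma 3.58.1), fits that were not robust, the replicate number as a block, an offset for gene length, genes without overlaps, and each library left out.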

Additional observations from a re-analysis of the deposited data

How the results depend on the processing

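All 8 receptor genes and METTL3 kept their direction under each of the 17 alternatives that could test them, and METTL3, SORT1 and the 5 risers other than GFRA2 kept their calls. GFRA3 was not tested with a minimum of 10 counts in every library, and METTL3 was kept among the genes without overlaps although it overlaps TOX4. GFRA2 was no longer past the threshold without siControl replicate 2 or siMETTL3 replicate 2, and with each library left out in turn it lay between 0.18 and 0.35 (log2 fold change); the cause was not tested. Over those fits GFRA3 went from 1.28 to 1.81 and NTRK3 from 0.86 to 1.12. RET stayed short of the threshold throughout (FDR 0.0838 to 0.433). With genes without overlaps, 1852 genes were higher and 1898 lower because fewer were tested (9518), and 39.4% were called. The labels do not say whether the replicate numbers pair the libraries, and the main fit did not use them. Deviations from group means correlated at 0.052, 0.0595 and 0.103 for the same number and at -0.0973 to 0.0479 for different numbers. These correlations were weak, but each library correlated best with its own number. With the replicate number as a block, METTL3 had a log2 fold change of -0.71, 6 receptor genes were higher and 1 was lower, and 6166 genes were called. The low counts of GFRA3, NTRK3, NGFR and NTRK2 limit the precision of their changes.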
